A study of Trichoderma reesei with 17 samples.

Results

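XYR1 is the transcription factor of the Zn2Cys6 family on which Trichoderma reesei depends for the expression of its cellulase and hemicellulase genes. It is best known for its role on inducing carbon sources such as cellulose and the disaccharide sophorose. Glucose represses the same enzymes, in part through the carbon catabolite repressor CRE1, which also acts on xyr1 itself. The comparison described here asked which transcripts differed under this repression when xyr1 was lost. It rests on 5 of the 17 RNA-seq libraries with counts, chosen here by their labels and on no measured value. These are replicates 1, 2 and 3 of a Δxyr1 mutant in glucose and replicates 1 and 3 of its parent, the strain QM9414 (labelled wild type), in glucose. Replicate 2 of QM9414 in glucose was not analysed here. The study had removed that library as not informative when it checked its data, so the QM9414 pair and its spread depend on that choice. The other 12 libraries hold 3 replicates of each strain in cellulose and in sophorose, and were used for the estimate of the spread and for interaction terms.

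Mycelium of both strains was grown in Mandels-Andreotti medium with 2% glucose at 28°C and 200 rpm, and the RNA of each replicate was pooled over 24 and 48 h. The mutant is 1 deletion strain made earlier, so what is particular to that strain and what follows from the loss of xyr1 cannot be told apart. The values are the reads counted on each gene, scaled to a library total of 1000000 (CPM) after correction by the TMM method, which centres the strain differences of most genes on 0. A single quasi-likelihood model of edgeR was fitted to the 17 libraries for 8506 genes. A gene counts as called, higher or lower in Δxyr1, where its adjusted p did not exceed 0.05 and its fold change was 2 or more in size (log2 fold change 1). Log2 fold changes are Δxyr1 over QM9414 and are given ± their standard error. In bulk RNA, fewer cells of a type and less RNA per cell cannot be told apart. Genes are named by their T. reesei protein ID, with the function that the study's annotation gives.

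The 3 Δxyr1 libraries held 29056712, 14944332 and 16900087 counts, and the QM9414 libraries held 9852765 and 19056754. They did not fall into tight groups by strain. Across genes, Δxyr1 replicates 2 and 3 correlated with each other at 0.992, while Δxyr1 replicate 2 correlated more closely with QM9414 replicate 3 (0.984) than with Δxyr1 replicate 1 (0.980). A pair of transcripts took an unequal share of the libraries. Protein 48266 took 24.9%, 18.4% and 8.15% of all counts in Δxyr1, against 3.24% and 3.32% in QM9414. Protein 61593 took 8.42%, 7.42% and 3.26% in Δxyr1, against 1.28% and 1.60% in QM9414. The 2 genes were named after their values were seen, carry no description in the files, and were not called (log2 fold changes 3.03 and 2.77, adjusted p = 0.177 and 0.226). Over all genes, the median log2 fold change was −0.60 without TMM factors and −0.00 with them. All changes below are relative to the TMM scale.

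**Figure D1:**
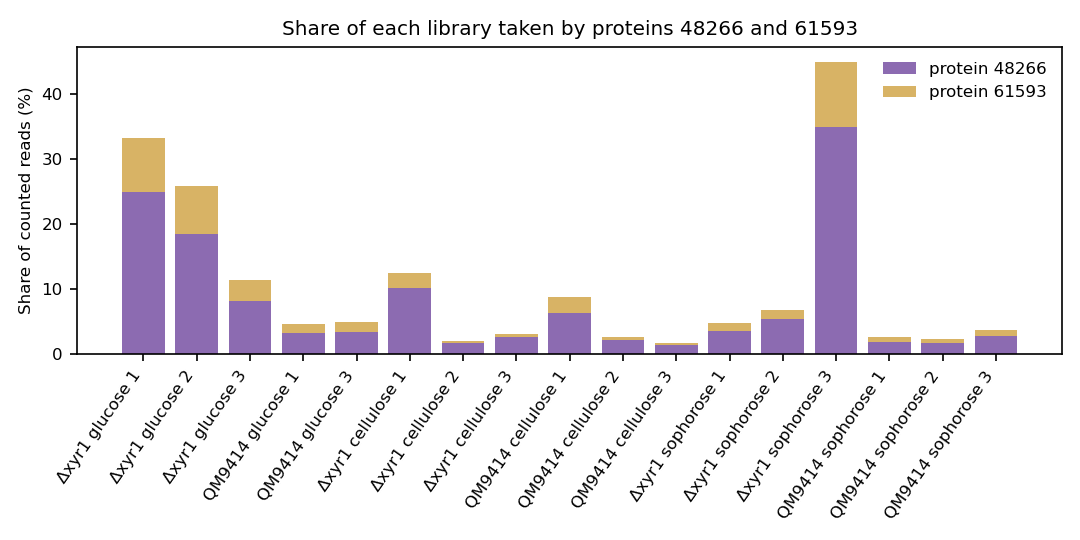
Share of all counted reads (%) that 2 genes took in each of the 17 libraries, as stacked bars for proteins 48266 and 61593. Together they took 33.3%, 25.8% and 11.4% in the Δxyr1 glucose libraries, against 4.52% and 4.92% in the QM9414 glucose libraries, and 45.0% in Δxyr1 sophorose replicate 3.

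The targeted gene was low in every glucose library. Transcripts counted on xyr1 (protein 122208) came to 19, 46 and 74 counts in Δxyr1, against 102 and 191 counts in QM9414, which is 1.01, 4.46 and 5.68 CPM in Δxyr1, against 9.21 and 10.0 CPM in QM9414. All 3 Δxyr1 libraries lay below both QM9414 libraries, but the difference was not called (log2 fold change −1.40 ± 0.43, adjusted p = 0.0643). It was called lower by DESeq2 (log2 fold change −1.37, adjusted p = 0.0165) and without scaling factors (−1.95, adjusted p = 0.0121). Replicates 2 and 3 of Δxyr1 held more xyr1 reads than replicate 1, as they also did for most cellulase genes, so that the mutant libraries stand apart from each other. The strain labels were followed as given, and for the main genes and groups it is said which calls were lost without these 2 libraries. Leaving out both, a choice made after the values were seen, xyr1 was called lower, at a log2 fold change of −3.26 for the remaining library, which is assumed to vary like the other groups. The study reported no read coverage of xyr1 in the mutant under any condition, which the deposited counts do not match. The cause of this difference was not tested. In the other carbon sources reads on xyr1 did not vanish in the mutant either. They came to between 8.39 and 14.7 CPM in Δxyr1, against 534 to 677 CPM in QM9414, in cellulose, and to between 81.5 and 93.7 CPM in Δxyr1, against 2252 to 2883 CPM in QM9414, in sophorose.

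Of the 8506 genes, 221 (2.60%) were called on glucose, 160 higher (1.88%) and 61 lower (0.717%) in Δxyr1, while without scaling factors 61 were called higher and 975 lower. With no fold threshold, 566 genes passed the adjusted p of 0.05 (6.65%), 278 higher and 288 lower. In 2894 genes (34.0%) the strains did not overlap, and 220 of the 221 called genes were among them. Among the called genes without overlap, 148 averaged at least 100 counts over the 5 libraries, 112 higher and 36 lower. Of the called higher genes 28.8% carried no described function, as did 28.9% of all genes tested, and of the called lower genes 16.4% did. Fitted on the 5 glucose libraries alone, 0 genes were called (edgeR, smallest adjusted p = 0.0783, 1213 genes at an unadjusted p under 0.05), so that each call below rests on the spread estimated over all 17 libraries. The counts also turned on single libraries. Leaving out QM9414 replicate 1 left 44 calls, leaving out Δxyr1 replicate 3 left 95 and leaving out Δxyr1 replicate 2 left 148, while leaving out Δxyr1 replicate 1 gave 451 and leaving out QM9414 replicate 3 gave 191. Without both Δxyr1 replicates 2 and 3, 40 genes were called higher and 94 lower, and 57 of the 221 genes remained called.

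**Figure D2:**
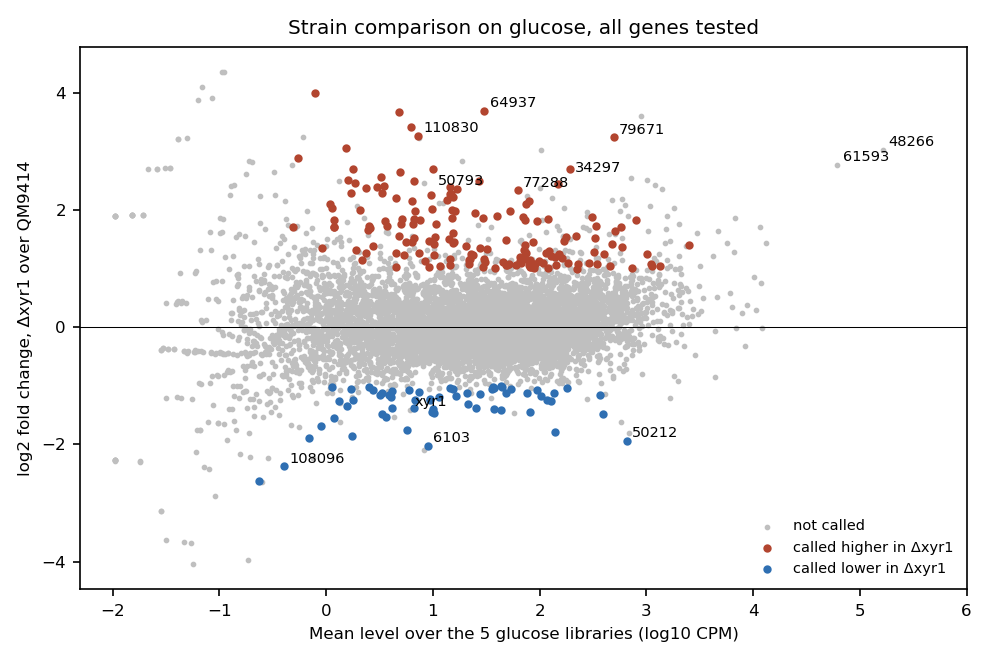
Log2 fold change, Δxyr1 over QM9414, of each gene on glucose (vertical axis) against its mean level over the 5 glucose libraries (log10 CPM, horizontal axis), with 160 genes called higher and 61 called lower in colour. The 2 most abundant transcripts lie at 2.77 and 3.03 and were not called. 21 tested genes with no count in glucose are not drawn.

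Many of the higher genes shared an order of libraries within each strain. In 128 of the 160 called higher genes Δxyr1 replicate 1 was the lowest of the mutant libraries, and in 106 the mutant libraries rose from replicate 1 over 2 to 3. In 118 QM9414 replicate 3 lay above QM9414 replicate 1. The part in these results of whatever ordered the libraries was not tested. The called lower genes showed less of it. In 16 of 61 Δxyr1 replicate 1 was the highest of the mutant libraries, and in 38 QM9414 replicate 3 lay below QM9414 replicate 1. The share of all genes with these orders was not worked out, so the order is not read as particular to the called genes.

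No difference in the cellulase genes passed the test under repression. The list holds 12 genes of cellobiohydrolases, endoglucanases, polysaccharide monooxygenases and accessory proteins. Of these, 0 were called, against 2.60% of all genes, with a median log2 fold change of 0.16. Their summed level was 45.7, 119 and 132 CPM in Δxyr1, against 89.8 and 77.0 CPM in QM9414, so that the strains overlapped. In QM9414 the same sum was between 26776 and 30391 CPM in cellulose and between 21057 and 25428 CPM in sophorose. The median gene stood at 0.0594%, 0.250% and 0.354% of its mean QM9414 cellulose level in the Δxyr1 glucose libraries, against 0.270% and 0.221% in the QM9414 glucose libraries.

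Cellobiohydrolase I (cel7a, protein 123989), the most abundant secreted cellulase, had 0.320, 23.9 and 31.3 CPM in Δxyr1, against 28.7 and 16.5 CPM in QM9414. Cellobiohydrolase II (protein 72567), which attacks cellulose from the other chain end, had 0, 9.60 and 15.4 CPM in Δxyr1, against 13.9 and 6.66 CPM in QM9414. The zero in Δxyr1 replicate 1 allows up to 0.160 CPM, the level of 3 counts, a limit that covers counting error only. For these 2 genes Δxyr1 replicates 2 and 3 were within or above the range of QM9414, and replicate 1 lay below it. The polysaccharide monooxygenase gene cel61b (protein 120961), which cuts cellulose by oxidation, had 0.0533, 2.81 and 3.53 CPM in Δxyr1, against 1.72 and 1.05 CPM in QM9414, again lowest in Δxyr1 replicate 1. The endoglucanase gene cel5a (protein 120312) had 0, 2.52 and 2.07 CPM in Δxyr1, against 1.90 and 0.996 CPM in QM9414. Swollenin (protein 123992), an expansin-like protein that loosens cellulose, was measured in all 5 libraries, at 15.5, 26.2 and 31.3 CPM in Δxyr1, against 15.5 and 14.0 CPM in QM9414, with the strains overlapping by a small margin. In the 3 Δxyr1 libraries the cellulase sum and the xyr1 level had the same order, with replicate 1 lowest, and the part of one in the other was not tested. Leaving out Δxyr1 replicate 1, 1 cellulase gene was called higher, and without scaling factors 1 was called lower. The fit without both Δxyr1 replicates 2 and 3 leaves 1 mutant library and cannot decide whether these genes differ.

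**Figure D3:**
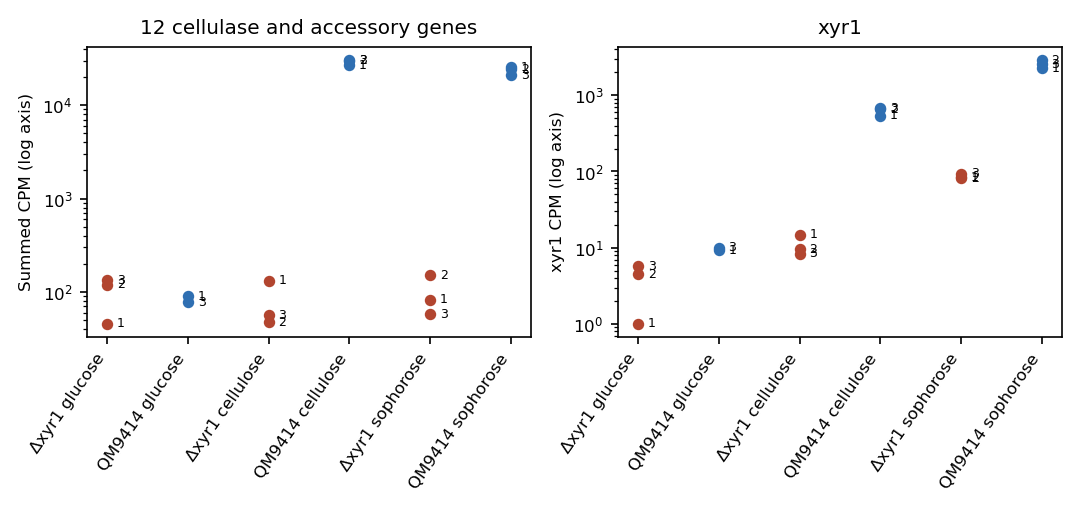
Summed CPM of the 12 cellulase and accessory genes (left) and CPM of xyr1 (right) in every library by group, on log axes, with replicate numbers beside the points. On glucose the sums were 45.7, 119 and 132 CPM in Δxyr1, against 89.8 and 77.0 CPM in QM9414, while in cellulose every QM9414 library lay at 26776 CPM or above.

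Hemicellulase genes, whose products cut xylan, mannan and their side chains, had 1 call. Of 20 tested, the α-L-arabinofuranosidase gene abf3 (protein 55319), whose product removes arabinose side chains, was called higher, with 9.43, 14.3 and 16.6 CPM in Δxyr1, against 5.51 and 5.82 CPM in QM9414 (log2 fold change 1.24 ± 0.27, adjusted p = 0.0168). All Δxyr1 libraries were above both QM9414 libraries, and the call held in 2 of the 5 fits that each left out 1 library, and not without both Δxyr1 replicates 2 and 3 (adjusted p = 0.200). The gene of a GH43 enzyme (protein 68064, named after its values were seen) had 37.2, 34.3 and 35.2 CPM in Δxyr1, against 73.1 and 63.1 CPM in QM9414, which passed the adjusted p (0.00370) but not the fold threshold (log2 fold change −0.94). That gene made up 58.7% of the summed hemicellulase level, which was 66.1, 76.4 and 80.2 CPM in Δxyr1, against 101 and 91.0 CPM in QM9414. The lower sum was that of this 1 gene. Without it the summed level was 28.9, 42.1 and 45.0 CPM in Δxyr1, against 27.4 and 27.8 CPM in QM9414, above QM9414 in all 3 Δxyr1 libraries, and the median log2 fold change of the list was −0.01. Of 14 genes of β-glucosidases, which split cellobiose, 0 were called and 2 passed the adjusted p in the lower direction. Of 7 genes of pentose reductases and dehydrogenases, 0 were called, and 1 was called higher without Δxyr1 replicate 1. Their summed level was 13775, 11427.5 and 12720 CPM in Δxyr1, against 6803 and 7280 CPM in QM9414. A single gene (protein 77481) made up 97.3% of it. Without that gene the strains overlapped, at 232, 327 and 340 CPM in Δxyr1, against 222 and 274 CPM in QM9414.

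The regulators tied to cellulase expression had no call. Of 16 tested, 0 passed and the median log2 fold change was 0.02. The repressor gene cre1 had 404, 242 and 234 CPM in Δxyr1, against 292 and 295 CPM in QM9414. The repressor gene ace1 had 839.9, 534 and 543 CPM in Δxyr1, against 508 and 632 CPM in QM9414. In both the libraries of the strains overlapped. The activator gene ace3 (protein 77513) had 38.3, 37.4 and 39.2 CPM in Δxyr1, against 35.9 and 35.8 CPM in QM9414, above QM9414 in each library but by little (log2 fold change 0.10 ± 0.13, adjusted p = 0.708). Leaving out a gene near the limit of detection, the largest difference after xyr1 was that of a gene described as PacG/VIB-1 (protein 54675), with 109, 98.0 and 66.1 CPM in Δxyr1, against 133 and 154 CPM in QM9414 (log2 fold change −0.66 ± 0.19, adjusted p = 0.0507), which did not pass. The gene of the putative methyltransferase LAE1 (protein 41617), a regulator of secondary metabolism in fungi, had 26.5, 18.0 and 18.8 CPM in Δxyr1, against 16.3 and 15.5 CPM in QM9414 (log2 fold change 0.42 ± 0.16, adjusted p = 0.121). A further 9, which include hap2, hap3, the velvet gene vel1 and a GATA factor (protein 76817), lay between −0.77 and 0.28 on the log2 scale. The lowest of them (protein 26163) was near the limit of detection, with at most 0.271 CPM in any library.

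A run of 3 neighbouring genes was called lower in Δxyr1. The gene of a glycosyltransferase of family GT2 (protein 50212), the family that includes chitin synthases, had 313, 437 and 179 CPM in Δxyr1, against 1010 and 1359 CPM in QM9414 (log2 fold change −1.94 ± 0.30, adjusted p = 0.00359). The gene of a GH16 glucan-acting enzyme (protein 50215) had 210.4, 306 and 165 CPM in Δxyr1, against 599.7 and 669 CPM in QM9414 (log2 fold change −1.48 ± 0.22, adjusted p = 0.00294). The gene of a protein with a fasciclin domain (protein 65522), a domain found in cell adhesion proteins, had 57.9, 104 and 49.9 CPM in Δxyr1, against 194 and 293 CPM in QM9414 (log2 fold change −1.79 ± 0.31, adjusted p = 0.00613). These 3 are direct neighbours in the genome annotation, and the GT2 and GH16 genes were the 2 called lower genes of highest level. In each the highest Δxyr1 library lay below the lower QM9414 library, and each call held without any 1 library and without both Δxyr1 replicates 2 and 3 (log2 fold changes −1.94, −1.61 and −2.09).

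The other genes of lowest fold change had mixed functions, among them transporters, enzymes of small molecules and a regulator. A putative multidrug transporter of the major facilitator superfamily (MFS, protein 6103) had 2.56, 6.20 and 3.61 CPM in Δxyr1, against 16.4 and 16.3 CPM in QM9414 (log2 fold change −2.02 ± 0.33, adjusted p = 0.00370), the lowest fold change among called genes of at least 100 counts. An exchanger of sodium for protons (protein 78738), which serves ion and pH balance, had 23.9, 22.3 and 21.5 CPM in Δxyr1, against 67.9 and 51.3 CPM in QM9414 (log2 fold change −1.40 ± 0.12, adjusted p = 7.55e-05). A sorbitol dehydrogenase gene (protein 76784), whose product converts the sugar alcohol to fructose, had 19.2, 33.2 and 26.1 CPM in Δxyr1, against 79.8 and 60.0 CPM in QM9414 (log2 fold change −1.42 ± 0.21, adjusted p = 0.00294). The spread within each strain was small in these 3 genes against the gap between strains, and all 3 calls held in each fit with 1 library left out. A membrane protein of the Mpv17/PMP22 family (protein 42053) and a gene described only as unique protein (protein 112094) held likewise, at log2 fold changes of −1.32 and −1.47. The genes of an MFS permease (protein 59272, −1.44), a GCN5-related N-acetyltransferase (protein 59827, −1.45) and argininosuccinate synthetase (protein 82619, −1.39) each kept the call in 4 of the 5 fits. That of a Zn2Cys6 regulator (protein 112499, −1.38, adjusted p = 0.0444) kept it in 0. Among abundant transcripts, fumarate lyase (protein 80268) had 280.4, 262 and 196 CPM in Δxyr1, against 621 and 479.6 CPM in QM9414, and the superoxide dismutase gene sod1 (protein 123029), whose product removes superoxide, had 99.5, 126 and 157 CPM in Δxyr1, against 243 and 278 CPM in QM9414. Both were called lower (−1.16 and −1.03), in 4 and 2 of the 5 fits. Without both Δxyr1 replicates 2 and 3 protein 112094, the Zn2Cys6 regulator and fumarate lyase were not called (adjusted p = 0.0535, 0.116 and 0.101), while the other 8 genes of this group were.

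**Figure D4:**
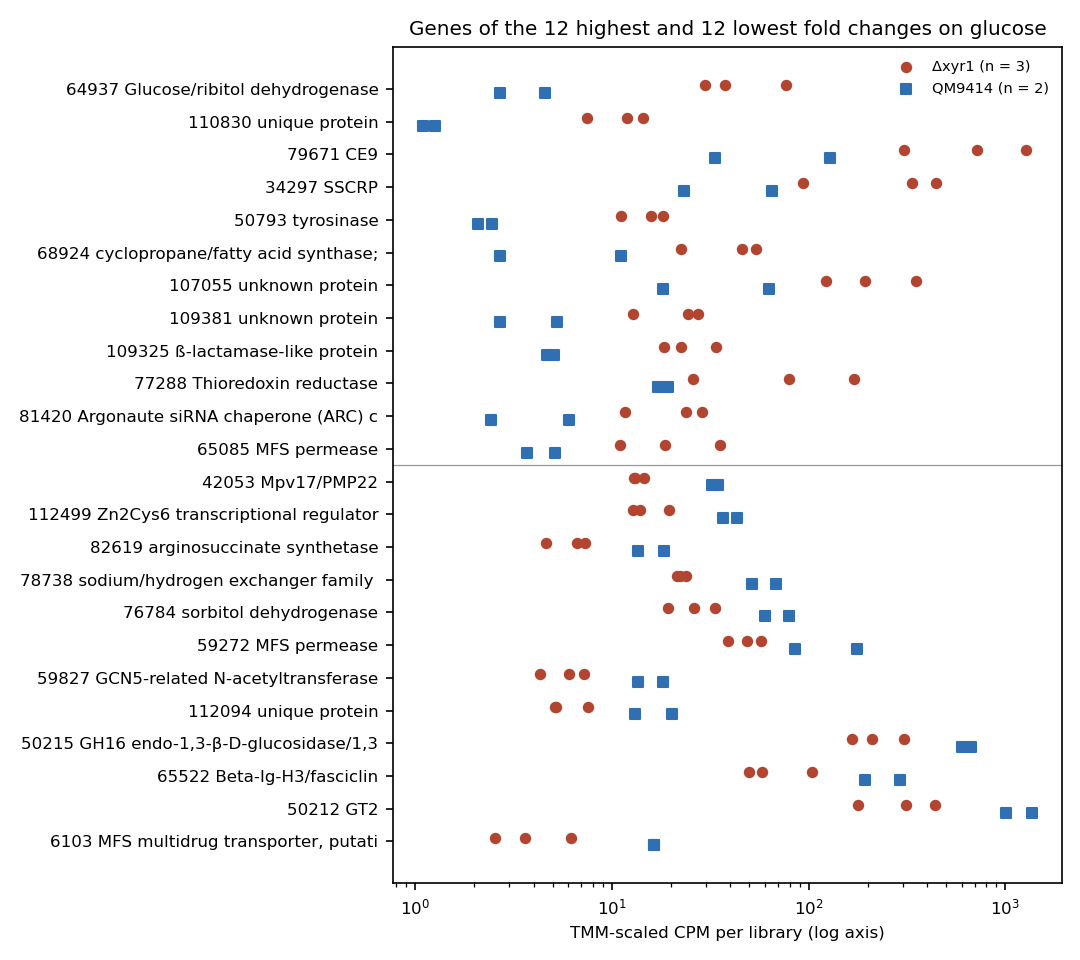
TMM-scaled CPM (log axis) of the 12 genes of highest and the 12 of lowest fold change among called genes with at least 100 mean counts and no overlap, 1 point per library, circles for Δxyr1 (n = 3) and squares for QM9414 (n = 2). The GT2 gene (protein 50212) lay between 179 and 437 CPM in Δxyr1, against 1010 and 1359 CPM in QM9414, and the CE9 gene (protein 79671) between 305 and 1280 CPM in Δxyr1, against 33.6 and 128 CPM in QM9414.

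In the other direction the largest change, among called genes of at least 100 counts and without overlap, was that of a gene described as glucose/ribitol dehydrogenase, of the short-chain dehydrogenase family (protein 64937), with 29.8, 37.7 and 77.0 CPM in Δxyr1, against 2.71 and 4.56 CPM in QM9414 (log2 fold change 3.69 ± 0.70, adjusted p = 0.00912). A gene of the carbohydrate esterase family CE9 (protein 79671), whose members remove the acetyl group of N-acetylglucosamine-6-phosphate, had 305, 716 and 1280 CPM in Δxyr1, against 33.6 and 128 CPM in QM9414 (log2 fold change 3.24 ± 0.75, adjusted p = 0.0223). The CE9 gene was the most abundant of the 12 highest. Near it lies the gene of glucosamine-6-phosphate isomerase (protein 49898), the enzyme that turns the deacetylated sugar into fructose-6-phosphate, with 57.0, 98.0 and 138 CPM in Δxyr1, against 28.0 and 45.0 CPM in QM9414 (log2 fold change 1.41 ± 0.32, adjusted p = 0.0199). That gene was looked up after the CE9 values were seen. The isomerase gene lies 2 genes from the CE9 gene and was called. The direct neighbours of the CE9 gene were not (proteins 79669 and 79673, log2 fold changes 0.10 and −0.34). Protein 49888, 2 genes away on the other side, and protein 79677, 3 genes away, were not called either (0.29 and 0.26). Each of the CE9 and isomerase calls held in 3 of the 5 fits, and in both genes the values of Δxyr1 replicate 1 were the lowest of the mutant. Without both Δxyr1 replicates 2 and 3 the dehydrogenase, CE9 and isomerase genes were not called (adjusted p = 0.0588, 0.195 and 0.291).

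A tyrosinase gene (protein 50793), whose product oxidises phenols on the way to melanin, had 11.1, 18.2 and 15.8 CPM in Δxyr1, against 2.08 and 2.46 CPM in QM9414 (log2 fold change 2.70 ± 0.47, adjusted p = 0.00613). A gene described as β-lactamase-like (protein 109325) had 18.5, 22.4 and 33.9 CPM in Δxyr1, against 5.06 and 4.67 CPM in QM9414 (log2 fold change 2.36 ± 0.24, adjusted p = 0.000315). In both the strains lay far apart against their spread, and the β-lactamase-like call held in each of the 5 fits. Thioredoxin reductase (protein 77288), which keeps thioredoxin reduced, had 25.9, 79.6 and 169.8 CPM in Δxyr1, against 17.1 and 19.2 CPM in QM9414 (log2 fold change 2.33 ± 0.57, adjusted p = 0.0285), and here Δxyr1 replicate 1 lay close to QM9414. With 1 library left out, it stayed called in 1 of the 5 fits. A small secreted cysteine-rich protein (SSCRP, protein 34297) had 93.3, 336 and 444 CPM in Δxyr1, against 23.4 and 65.3 CPM in QM9414 (log2 fold change 2.70 ± 0.78, adjusted p = 0.0493). It stayed called in 1 of them. The remaining ones were a unique protein (110830, 3.27), a cyclopropane fatty acid synthase (68924, 2.49), 2 unknown proteins (107055, 2.44, and 109381, 2.39), a subunit of the Argonaute siRNA chaperone complex (81420, 2.28) and an MFS permease (65085, 2.27). Of these 12 highest genes, 3 were called without both Δxyr1 replicates 2 and 3, the tyrosinase, the β-lactamase-like and the unique protein gene 110830.

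A smaller set did not depend on any 1 library. Of the 221 called genes, 24 kept the call in each of the 5 fits with 1 library left out, 11 higher and 13 lower, and 20 of these 24 were also called without both Δxyr1 replicates 2 and 3, 10 in each direction. The 24 were picked out after the values were seen, and none was called on the glucose libraries alone. The higher ones were, in rising order of fold change, a SAM-dependent methyltransferase (protein 65711, 1.07), a Zn2Cys6 regulator (105520, 1.20), a flavoprotein monooxygenase (23083, 1.22), the cell wall protein CwpA (122870, 1.24), a homeodomain-like protein (58853, 1.48), the β subunit of the signal recognition particle receptor (66550, 1.53), a cytochrome P450 (109811, 1.95), an MFS permease (53611, 1.99), the β-lactamase-like protein and 2 unique proteins (108143, 2.37, and 110830). The most abundant of them was the receptor subunit, part of the docking site for ribosomes at the endoplasmic reticulum, with 189, 215 and 317 CPM in Δxyr1, against 73.9 and 92.2 CPM in QM9414 (log2 fold change 1.53 ± 0.19, adjusted p = 0.000999). The homeodomain-like gene had 59.9, 71.2 and 64.7 CPM in Δxyr1, against 23.1 and 23.6 CPM in QM9414 (log2 fold change 1.48 ± 0.19, adjusted p = 0.000999). The P450 gene, of a family of haem oxygenases, had 22.9, 44.4 and 37.8 CPM in Δxyr1, against 8.67 and 9.33 CPM in QM9414 (log2 fold change 1.95 ± 0.23, adjusted p = 0.000741). In these 3 the lowest Δxyr1 library was above the higher QM9414 library. The lower ones, beside those given above, were the glycine cleavage T protein (78864), the translation protein Sua5 (53366), an MFS permease (62971) and 2 unknown proteins (112222 and 66929).

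Enzymes of amino acid synthesis and related steps, a list put together after the values were seen, had their calls in the lower direction. Of 95 genes tested, 0 were called higher and 6 lower, while 89 were not called, against 0.717% of all genes called lower, and 18 passed the adjusted p in the lower direction, against 3.39% of all genes. In 41 of them all Δxyr1 libraries lay below both QM9414 libraries and in 6 above, where 17.2% and 16.8% of all genes did so. The summed level was 16621, 15729 and 14663 CPM in Δxyr1, against 20942 and 19529 CPM in QM9414, a ratio of 0.774, and the median log2 fold change was −0.26. The glycine cleavage T protein gene, a member of the list whose product breaks down glycine and does not make an amino acid, had 80.3, 82.5 and 81.9 CPM in Δxyr1, against 204 and 187 CPM in QM9414 (log2 fold change −1.26 ± 0.15, adjusted p = 0.000741). Ornithine carbamoyltransferase (protein 73937), a step of arginine synthesis, had 68.0, 78.5 and 59.5 CPM in Δxyr1, against 162 and 149 CPM in QM9414 (log2 fold change −1.18 ± 0.22, adjusted p = 0.00730). A branched-chain aminotransferase gene (protein 75294) had 59.3, 86.9 and 82.7 CPM in Δxyr1, against 190.5 and 169 CPM in QM9414 (log2 fold change −1.24 ± 0.20, adjusted p = 0.00370). Argininosuccinate synthetase, the next step to arginine, had 4.64, 7.27 and 6.68 CPM in Δxyr1, against 13.5 and 18.5 CPM in QM9414. The other called members were a gene described as a putative dihydrodipicolinate synthase (65882, −1.22) and a histidinol-phosphate or aromatic aminotransferase (74913). The part of the first in amino acid synthesis rests on its description alone. The number called was between 2 and 7 with 1 library left out, with 2 left when QM9414 replicate 1 was out, and 7 without both Δxyr1 replicates 2 and 3, lower in each.

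Metal transporters and metal-binding proteins had most of their calls in the higher direction on the TMM scale. Of 65 tested, 8 were called higher and 1 lower, against 1.88% and 0.717% of all genes, while without scaling factors 4 were called higher and 10 lower. The median log2 fold change was 0.23, and the summed level was 8464, 11726 and 13212 CPM in Δxyr1, against 5296 and 5708 CPM in QM9414. A copper transporter of the Ctr type (protein 71029), which takes up copper, had 215, 359.8 and 318 CPM in Δxyr1, against 94.1 and 109 CPM in QM9414 (log2 fold change 1.55 ± 0.27, adjusted p = 0.00604). An iron transporter gene (protein 41590) had 49.4, 96.1 and 151 CPM in Δxyr1, against 11.7 and 40.9 CPM in QM9414 (log2 fold change 1.89 ± 0.50, adjusted p = 0.0375). A heavy metal detoxification protein (80922, 1.36), a heavy metal P-type ATPase (123735, 1.45), a copper transporter (108749, 1.09) and a siderophore transporter (67026, 1.11) were also called. The other 2 were oxidoreductases that the list took up for metal words in their descriptions, of which protein 23292 was among the called higher genes of highest level (888, 1444 and 1826 CPM in Δxyr1, against 614 and 703 CPM in QM9414). The 1 called lower was a cation ATPase (122972, −1.54) of low counts. With 1 library left out between 1 and 15 members were called higher, 1 without QM9414 replicate 1 or without Δxyr1 replicate 3 and 3 without Δxyr1 replicate 2, and without both Δxyr1 replicates 2 and 3 none was called higher and 1 lower, although all 3 Δxyr1 sums lay above both QM9414 sums.

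On the TMM scale, sugar transporters and chaperones differed in sum and in few or no single genes. The summed level of 18 sugar transporter genes was 8210, 12740 and 15136 CPM in Δxyr1, against 3410 and 6209 CPM in QM9414, of which 1 gene (protein 106556) made up 72.1%. That gene was not called (adjusted p = 0.470), 0 of the 18 were, and the median log2 fold change was −0.04, on the other side of 0 from the sum. Without protein 106556 the summed level was 2378, 3756 and 4064 CPM in Δxyr1, against 960 and 1602 CPM in QM9414. The summed level of 88 chaperone genes was 52491, 66811 and 62390 CPM in Δxyr1, against 24742 and 41772 CPM in QM9414. HSP104 (protein 80142), a disaggregase of heat-damaged proteins, made up 26.5% of it, with 13243, 19521 and 19888 CPM in Δxyr1, against 3226 and 9784 CPM in QM9414, and was not called (adjusted p = 0.311). QM9414 replicate 3 lay between QM9414 replicate 1 and the mutant libraries, and 1 of the 88 genes was called, the Argonaute chaperone subunit named above.

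**Figure D5:**
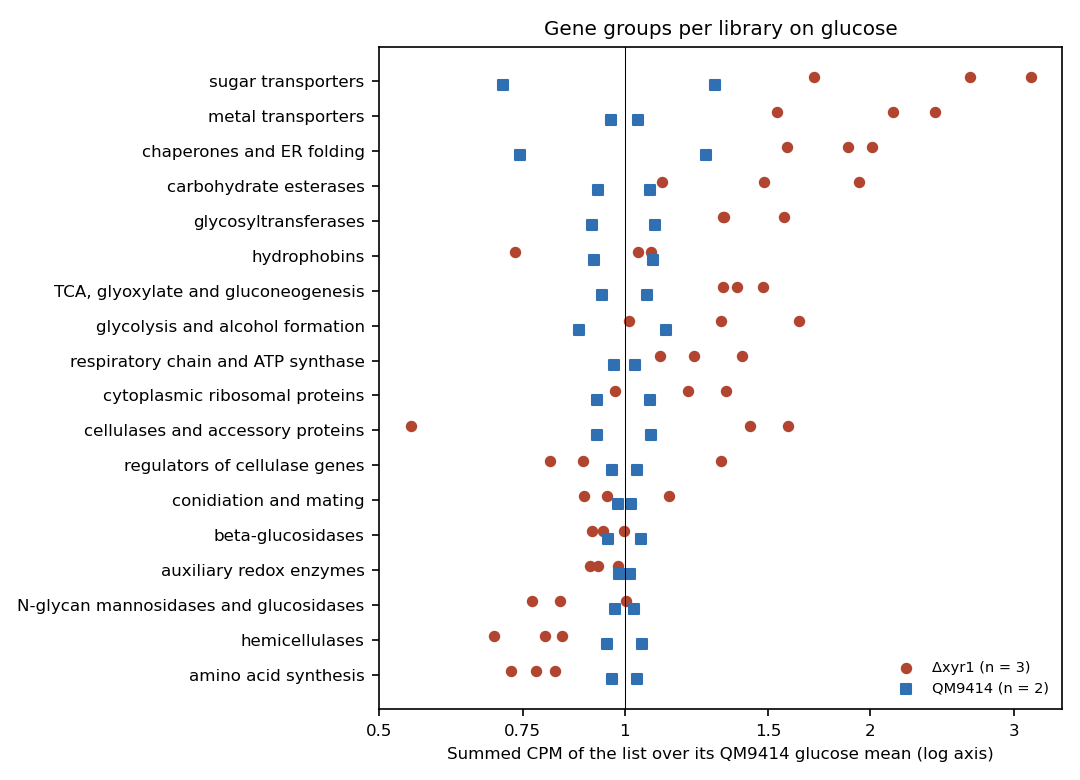
Summed CPM of 18 gene groups in each glucose library, divided by the mean of the 2 QM9414 libraries (log axis), circles for Δxyr1 (n = 3) and squares for QM9414 (n = 2), with a line at 1. The summed level of amino acid synthesis was 0.774 times and that of metal transporters 2.02 times the QM9414 mean, while those of cellulases, regulators and conidiation overlapped. The sum of glycosyltransferases, TCA and respiratory chain genes turns to the other side of 1 without TMM factors. With the median gene in place of the sum, glycosyltransferases, carbohydrate esterases, sugar transporters and auxiliary redox enzymes turn.

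Surface and secreted proteins were mixed. Of 126 genes of hydrophobins and SSCRPs, 7 were called higher and 2 lower (percentages of all genes 1.88% and 0.717%). Hydrophobins are small amphipathic proteins that coat aerial hyphae and spores, and of 15 tested 3 were called higher. Protein 22564 had 149, 151 and 155 CPM in Δxyr1, against 73.3 and 76.9 CPM in QM9414 (log2 fold change 1.02 ± 0.15, adjusted p = 0.00325), protein 120189 had 96.8, 105 and 111 CPM in Δxyr1, against 45.5 and 56.1 CPM in QM9414 (log2 fold change 1.03 ± 0.21, adjusted p = 0.0120), and the remaining one was hydrophobin 2 (59703, 2.45) of low counts. The summed hydrophobin level overlapped, at 1958, 2868 and 2766 CPM in Δxyr1, against 2446 and 2886 CPM in QM9414, and without both Δxyr1 replicates 2 and 3 the hydrophobins had 0 calls higher and 2 lower and the whole list 0 and 5, the other direction. Of the SSCRPs beside protein 34297, protein 122324 (1.52) and protein 121471 (1.05) were called higher. Of 68 genes of chitin and glucan hydrolases of the wall, the GH16 gene was called lower and a GH76 mannanase gene (74807, 1.09) higher. A gene described as a GH30 glucan endo-1,6-β-glucanase (69736, 1.46), outside that list and of low counts, was also called higher. Of 15 genes with a carbohydrate-binding module, 1 with a chitin-binding CBM50 (123663, 1.71) was called higher. In the auxiliary redox class (47 tested) 1 was higher, a GH61 polysaccharide monooxygenase gene outside the cellulase list (27554, 2.00), and 3 lower. Of 56 carbohydrate esterase genes 2 were higher, of CE9 and CE2, and 1 of CE1 lower (70630, −1.25).

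The following lists, mostly of oxidoreductases, had most of their calls in the higher direction on the TMM scale, as did all genes (1.88% higher and 0.717% lower). The auxiliary redox class given above did not, with 1 higher and 3 lower. Of 107 short-chain dehydrogenase genes tested 7 were higher and 0 lower, while without scaling factors 3 were higher and 5 lower. They were led by protein 64937, followed among the better counted by proteins 107962 (2.23) and 105282 (1.44). Of 30 alcohol dehydrogenase genes, a list set apart after the values were seen, 3 were higher, of which protein 81019 had 54.6, 109 and 238 CPM in Δxyr1, against 27.4 and 48.1 CPM in QM9414 (log2 fold change 1.82 ± 0.52, adjusted p = 0.0491). Of 56 cytochrome P450 genes 3 were higher, including protein 4517 (95.9, 117 and 129 CPM in Δxyr1, against 27.7 and 23.7 CPM in QM9414), and 2 lower. Among 120 flavin enzymes 4 were higher, including the sulfide:quinone oxidoreductase gene (76215, 1.04), whose product oxidises sulfide. Among 70 stress and detoxification enzymes 3 were higher, thioredoxin reductase, a catalase (120371, 1.61), which breaks down hydrogen peroxide, and a glutathione S-transferase (81979, 1.18), and sod1 was lower, against 1 higher and 8 lower without scaling factors. Without both Δxyr1 replicates 2 and 3, 1 short-chain dehydrogenase gene was higher and 2 were lower, and 0 stress genes were higher and 4 lower, so these counts rest on those libraries. Without both, 3 cytochrome P450 genes were higher and 3 lower, and 0 flavin enzymes were higher and 2 lower.

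Other transporters and regulators had calls on both sides. Of 186 MFS permease genes 3 were higher and 5 lower, and of 51 ABC transporter genes 2 of the pleiotropic drug resistance type were higher (82105, 1.24, and 82327, 1.10) and 1 lower (120114, −1.03). The ABC gene 82105, of a family that exports drugs and lipids, had 1392, 1123 and 1423 CPM in Δxyr1, against 383 and 728 CPM in QM9414. One amino acid transporter of 56 was higher (121942, 1.08), and 0 of 24 nitrogen, sulphur and phosphate transporters were called. Of 229 Zn2Cys6 regulators 5 were higher, led by protein 112134 (2.02) and including protein 60578 (1.15), and 1 was lower, against 1.88% and 0.717% of all genes, while without scaling factors 1 was higher and 29 were lower. Of 186 other transcription factors 4 were higher and 0 lower (0 and 28 without scaling factors), 2 GATA factors (4231, 1.09, and 57735, 1.06), a forkhead-associated protein (23268, 1.51) and a C2H2 regulator (106064, 1.12). Both lists were built from words in the descriptions and are not complete. Outside them a transcriptional activator of the NF-X1 zinc finger type (52924, −1.12) was called lower and the homeodomain-like gene (58853, 1.48) higher. Without both Δxyr1 replicates 2 and 3, 1 MFS permease gene was higher and 11 were lower, 1 Zn2Cys6 regulator was higher and 2 were lower, and 1 other factor was called in each direction.

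Lists of basic cell functions ran on both sides of the 2.60% of all genes that were called. None of 113 cytoplasmic ribosomal proteins, 24 mitochondrial ribosomal proteins, 47 ribosome biogenesis genes, 72 respiratory chain genes, 31 conidiation and mating genes and 17 enzymes that trim N-linked glycans was called. The conidiation list was built from words in the descriptions and missed the developmental regulatory protein WetA (4430, −1.01). That gene, of low counts, was called lower and kept the call in 1 of the 5 fits. The N-glycan list had a median log2 fold change of −0.39, with 3 genes past the adjusted p, all lower, and overlapping sums. Of 82 translation factors and tRNA synthetases Sua5 was lower, and 13 passed the adjusted p in the lower and 2 in the higher direction, against 3.39% and 3.27% of all genes. Of 51 glycolysis and alcohol formation genes 4 were called (7.84%) and none without both Δxyr1 replicates 2 and 3. The 3 alcohol dehydrogenases were higher and a gluconokinase gene (56934, −1.12) was lower. One gene was higher and 0 were lower among 29 TCA and gluconeogenesis genes (82026), 33 genes of polyketide, peptide and terpene synthesis (a non-ribosomal peptide synthetase, 60458, 1.87), 165 kinases and phosphatases (66521), 123 DNA replication and cell cycle genes (68110) and 61 cytoskeleton genes. Of 107 proteasome and ubiquitin genes 2 were higher (1.87%, 74406 and 77732), and of 146 lipid genes 3 were (2.05%), including proteins 103772 (2.25) and 111837 (1.01). One was higher and 1 lower among 112 genes of G-protein signalling (45573 lower) and 158 of vesicle transport and Golgi (Cog4, 54042, lower). Of 90 glycosyltransferases the GT2 gene alone was called, and of 149 proteases 3 were lower and 0 higher (2.01%), including D-aminopeptidase (109234, −1.08) and an ADAM metalloprotease (53343, −1.06).

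Among abundant transcripts, protein 120877, which carries no description, had 3003, 2983 and 4146 CPM in Δxyr1, against 1601 and 945 CPM in QM9414 (log2 fold change 1.41 ± 0.37, adjusted p = 0.0375). Its direct neighbour is the sulfide:quinone oxidoreductase gene. The myo-inositol-1-phosphate synthase gene (protein 79059), whose product makes the precursor of inositol lipids, had 2043, 1498 and 1584 CPM in Δxyr1, against 793 and 861 CPM in QM9414 (log2 fold change 1.05 ± 0.22, adjusted p = 0.0150). In both genes Δxyr1 was higher in each library, and the calls held in 1 and 3 of the 5 fits. Without both Δxyr1 replicates 2 and 3 the myo-inositol-1-phosphate synthase gene was called and protein 120877 was not (adjusted p = 0.139).

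The study's own lists for glucose were drawn on these samples, so they are not independent evidence of their direction. Of 15 genes listed as lowest, 11 were called lower here, all but the MFS gene 6103 and the N-acetyltransferase gene 59827 with a mean under 100 counts. Of 8 CAZyme genes 3 were called higher and 1 lower, of 7 transcription factors 6 and 1, including a RING finger gene (121889, 1.22), and of 11 transporters 2 and 3, including the MFS genes 69164 (1.27) and 80026 (−1.20).

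Some called genes were direct neighbours, but no share for genes placed at random was worked out, so no clustering is read from the count. Of 220 called genes with a position in the RefSeq table of the assembly used for names, 38 (17.3%) lay in 18 runs of direct neighbours, 15 of them all higher, 2 all lower and 1 mixed, with at most 3 genes. The longest were the GT2, GH16 and fasciclin genes, all lower, and a Zn2Cys6 regulator (106654, 1.03), a short-chain dehydrogenase (121478, 1.77) and thioredoxin reductase, all higher. Pairs of higher genes joined the copper transporter 108749 with the P450 gene 4517 and an importin gene (23193, 1.84) with the CBM50 gene. On one side of xyr1, the unknown gene 108096 (named after its values were seen) had 1, 3 and 2 counts in Δxyr1, against 7 and 17 counts in QM9414 and was called lower (log2 fold change −2.37 ± 0.52, adjusted p = 0.0169), while the neighbour on the other side (4213) was not (log2 fold change −0.17).

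The strain effect on glucose was set against that on the inducing carbon sources, which shares no library with it. Of the 160 genes called higher on glucose, 17 were called higher and 35 lower in cellulose, where 705 (8.29%) and 879 (10.3%) of all genes were, and 48 were called higher and 19 lower in sophorose, where 915 (10.8%) and 550 (6.47%) were. Of the 61 called lower on glucose, 23 were called lower and 8 higher in cellulose, and 4 and 4 in sophorose. The overlap of higher genes is thus 10.6% of the list on glucose and 2.41% of that in cellulose, and 48 of 160 and 5.25% for sophorose. The overlap of lower genes is 37.7% and 2.62% with cellulose. The strains in cellulose also differ in culture time. A growth of the mutant in glycerol, given for no QM9414 culture, is placed before the cellulose cultures by the study's methods and before the sophorose cultures by the deposited description, so its part in these overlaps and in the interaction terms below cannot be told apart from that of the deletion. QM9414 cellulose replicate 1 stands apart from its group. Proteins 48266 and 61593 together took 12.4% of the counts in Δxyr1 cellulose replicate 1, against 1.99% and 3.03% in the other 2, and 45.0% in Δxyr1 sophorose replicate 3, against 4.75% and 6.74% in the other 2.

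Whether the strain effects differed was tested with interaction terms. Against cellulose, the strain effect was more positive on glucose in 959 genes (11.3%) and more negative in 669 (7.87%). Against sophorose it was more positive in 466 (5.48%) and more negative in 556 (6.54%). Of the 221 genes called on glucose, 133 and 107 were among them, and 57 in both. Since the interaction contains the glucose contrast that chose these genes, nothing is read from those counts. The GT2 gene had log2 fold changes of −1.94 on glucose, −1.97 in cellulose and −0.72 in sophorose. The exchanger gene 78738 had −1.40, 0.10 and 0.41 in the same order, and the dehydrogenase gene 64937 had 3.69, −3.76 and −0.30. xyr1 itself had −1.40, −5.84 and −4.89, the smallest difference being that on glucose, where both strains had few reads on it.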

How the data were processed

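RNA-seq read counts per gene of 17 libraries were used, of which 5 were grown on glucose. Per the submitters' processing notes, reads were processed with TopHat2 2.0.4, SAMtools 0.1.19, HTSeq 0.6.0 and DESeq2 1.6.3. The authors deposited raw counts for 9129 genes, without normalization, and these counts were the only values used. A deposited table of normalized values and one of the authors' own comparisons, which holds fold changes and p-values, were not used, except for the gene descriptions in the second. No per-sample column was left unmapped. Of the 9129 IDs, 9072 were matched to RefSeq, 226 with a symbol.

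A gene entered the test if 2 or more libraries had 10 or more counts on it. The test was edgeR's (4.0.16, in R 4.3.3), with TMM factors, 6 groups and no block, with Benjamini-Hochberg adjustment over the 8506 genes. Replicates were taken as separate cultures, as the study's methods state, and p-values measure the spread between these libraries. Named genes were xyr1, the regulators, the most expressed cellulases, the 12 highest and 12 lowest called genes without overlap and with a mean of at least 100 counts, up to 4 called members per list, up to 3 of each study list and the 5 called genes of highest level in each direction. The comparison, gene lists and rules were chosen with earlier results of these data known. Alternatives were RLE and upper-quartile factors, DESeq2 1.42.0, 2 other filters, glucose libraries alone, a replicate block, each library left out and adjusted p alone. Fits without proteins 48266 and 61593, without scaling factors and without both Δxyr1 replicates 2 and 3 were added after the values were seen. The fits were tested on simulated data. The list of amino acid synthesis, those of hydrophobins and of alcohol dehydrogenases alone, and the genes said in the text to be so chosen, were added after the values were seen. Sequences were not analysed here. The values of 1 regulator are not reported here.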

Additional observations from a re-analysis of the deposited data

Results flagged for a closer look

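In 25 of the named genes called on glucose the strain effect on glucose differed from that in cellulose and from that in sophorose, each by an interaction term of edgeR's fit at an adjusted p of at most 0.05. Differences below are the log2 fold change, Δxyr1 over QM9414, on glucose minus that in the other carbon source, with cellulose first and sophorose second. These genes were chosen for their change on glucose, which is part of each difference.

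In 13 genes the strain effect was more positive on glucose than in both other carbon sources. The glucose/ribitol dehydrogenase gene (protein 64937) had 7.45 and 3.99, thioredoxin reductase (77288) 3.06 and 5.85, and the cyclopropane fatty acid synthase gene (68924) 5.32 and 2.07. The iron transporter (41590) had 3.33 and 2.44, the heavy metal ATPase (123735) 2.82 and 3.02, and a short-chain dehydrogenase (107962) 3.58 and 2.17. Among secreted and surface proteins, the SSCRP genes had 3.14 and 3.20 (34297) and 1.73 and 1.46 (121471), and the hydrophobin gene (120189) 1.03 and 1.61. The regulators had 1.66 and 3.05 (GATA factor 4231) and 1.12 and 1.13 (Zn2Cys6 factor 60578). The receptor subunit of the signal recognition particle (66550) had 1.43 and 2.05, and a ubiquitin hydrolase (74406) 1.47 and 1.72.

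In 5 genes the strain effect was more negative on glucose than in both. The sodium/proton exchanger (78738) had −1.50 and −1.81, Sua5 (53366) −1.12 and −1.22, and an MFS permease (80026) −1.15 and −1.23. The CE1 esterase (70630) had −2.11 and −1.31, and the unique protein 112094 −2.99 and −1.22.

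In 7 genes the effect on glucose lay between those in cellulose and sophorose. The P450 gene 4517 had 2.51 and −3.35, catalase (120371) 1.65 and −2.63, and dihydrodipicolinate synthase (65882) 1.19 and −4.00. The Ctr copper transporter (71029) had 2.11 and −2.13, and the oxidoreductase 23292 1.76 and −2.92. The ABC transporter 82105 had 2.11 and −1.23, and fumarate lyase (80268) 1.11 and −1.68. The strain effect in sophorose was positive in each of the 7, and that in cellulose negative.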

How the results depend on the processing

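The count of 221 called genes stayed between 208 and 231 with upper-quartile and RLE factors, at 212 with no filter, at 214 without proteins 48266 and 61593, and at 159 and 306 with a mean of at least 100 counts and with DESeq2. Fitted on the glucose libraries alone, 0 genes were called (edgeR, smallest adjusted p 0.0783, 1213 genes at an unadjusted p under 0.05). Without scaling factors 1036 were called, 61 higher and 975 lower, with 112 of the 221 among them, and at adjusted p alone 566. With 1 library left out the count was between 44 and 451, and leaving out both Δxyr1 replicates 2 and 3 gave 134. The interaction with cellulose had between 1296 and 1836 genes with 1 library left out, 2872 without scaling factors and 2482 at adjusted p alone. That with sophorose had between 695 and 1057, 449 without scaling factors, 1558 at adjusted p alone and 1593 without both Δxyr1 replicates. The causes were not tested, apart from the fewer libraries in each. With a replicate block 214 genes were called on glucose, 190 of them shared, and 1695 and 1040 for the interactions. Deviations from the group means correlated at 0.354 and 0.187 in the pairs of the same number and at 0.373 between Δxyr1 replicate 2 and QM9414 replicate 3. With 2 QM9414 libraries these deviations mirror each other, so this check cannot decide whether the numbers pair the samples. No pairing was assumed in the main fit.

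Of 84 named called genes, 84 stayed called with RLE factors, 83 with DESeq2, 80 with upper-quartile factors, 75 with the block, 48 without scaling factors, 26 without both Δxyr1 replicates 2 and 3, between 21 and 78 with 1 library left out, and 0 on the glucose libraries alone. Of 26 gene lists whose sums did not overlap, 14 turned to the other side of 1 without TMM factors and 7 with the median gene in place of the sum. Depth limits the genes of few counts, such as xyr1, most cellulase genes and protein 108096.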
